A study of Mus musculus with 8 samples.

Results

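Trib3 and 9 further genes of the ATF4 stress response (Atf4, Atf5, Ddit3, Chac1, Asns, Psat1, Phgdh, Shmt2 and Mthfd2) were followed in brown fat, a thermogenic tissue rich in mitochondria. They were chosen by name, as transcription factors of this response and well known targets, after Trib3 had been seen to be low in knockout tissue in these same data. All 10 were found, each as 1 probe set, among the 21115 probe sets of the table. Expression was measured on Affymetrix Mouse Gene 1.1 ST arrays in 8 mice, 1 array per mouse. The control group held 4 mice that the sample labels call wild type and the study's design text calls Flox, a name for mice whose target gene carries recombination sites. The other group held 4 GRBATKO mice, in which the glucocorticoid receptor gene was knocked out in brown fat. Every mouse, control and knockout, had been kept at 5 °C for 1 week and was 16 to 20 weeks old when the cold began. No mice kept warm were analysed here, and the sources used here do not name the Cre line that made the deletion.

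The labels of the arrays matched the targeted gene. Nr3c1, which codes for the glucocorticoid receptor, had a log2 intensity of 8.61 ± 0.08 (SD, n = 4) in controls, against 7.74 ± 0.10 (SD, n = 4) in knockouts, with no overlap (limma adjusted p = 0.00697). Whether its probes lie inside the deleted part is unknown. The extraction protocol names peritoneal macrophages, against the tissue field, but Ucp1, the uncoupling protein that defines brown fat, held rank 1 or 2 on every array. The arrays had median log2 intensities of 4.42 to 4.44. The 25th percentile was 3.03 in control 1 and 3.05 in control 4, while the other 6 mice had 2.84 to 2.90. Skeletal muscle markers stood out in control 3 and GRBATKO 4, where the mean log2 intensity of 12 markers was 7.14 and 5.61, against 3.22 to 4.20 in the other 6 mice. Lymphocyte markers stood out in GRBATKO 2, where the mean of 7 markers was 5.27, against 3.92 to 4.36 in the other 7 mice. All controls lay in array rows A and B and all knockouts in rows C and D, so genotype and array row cannot be told apart. Each mouse has a number in the labels, with nothing on how its tissue was handled. The p-values therefore reflect sample-to-sample spread, part of which may be technical.

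The integrated stress response begins when kinases that sense amino acid shortage, misfolded protein, viral RNA or failing mitochondria phosphorylate the translation factor eIF2. General protein synthesis then slows while the mRNA of the transcription factor ATF4 is translated more, so ATF4 activity can change without a change in Atf4 mRNA. ATF4, often paired with C/EBP proteins, switches on genes for amino acid synthesis and import, for one-carbon metabolism and for feedback. Trib3 is one of its targets and codes for a pseudokinase, a protein with the fold of a kinase but little or no catalytic activity, that binds AKT and ATF4 itself.

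ATF4 and C/EBP partners bind together at a composite element, for which the letters TGATGNAA were searched on both strands of RefSeq promoter windows (GRCm38.p6). Each window ran from 250 bases before to 50 after a start site. The windows of 3 of the 10 genes held a match, out of 12 windows for these genes, and 3.97% of all 32851 windows held one. These 3 stretches are shown because they are the matches among the genes described below. Each is 30 bases long, written 5′ to 3′ on the strand of the gene, with the match in capitals. In Chac1 and Trib3 the element lies on the opposite strand and reads reversed.
Trib3: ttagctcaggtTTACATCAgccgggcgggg
Chac1: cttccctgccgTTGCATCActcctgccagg
Asns: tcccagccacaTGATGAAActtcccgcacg

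The Trib3 stretch is chr2:152344028-152344057 on the minus strand, and its match begins 15 bases after the start site, inside the transcribed part. The Chac1 stretch is chr2:119351038-119351067 on the plus strand, with the match beginning 193 bases before the start site. The Asns stretch is chr6:7693214-7693243 on the minus strand, with the match beginning 23 bases before the start site. Windows of the other 7 genes, Mthfd2 among them, did not hold these letters. Neither the core of the palindromic glucocorticoid receptor element (ACANNNTGT, in 6.85% of all windows) nor the cyclic AMP element (TGACGTCA, in 1.79%) was found in any of the 12 windows. A match or its absence is a description of these letters in this window only.

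Trib3, Mthfd2 and Chac1 stood lower in GRBATKO tissue, while the other 7 genes differed by -0.14 to 0.04 on the log2 scale. In what follows a difference is the GRBATKO mean minus the control mean of log2 intensity, and its SE comes from the limma fit over all probe sets. The genes were chosen with this same contrast in view, so their differences are given as a description, with no p-value for single genes. The counts and the median that follow rest on the same contrast. An excess over all probe sets in them cannot be told apart from that choice. In tissue of mixed cells, fewer cells of a type and less RNA per cell cannot be told apart. By limma 0 of the 10 had an adjusted p under 0.05, where 0.0237% of all probe sets did (0.0189% lower and 0.00474% higher). At an unadjusted p under 0.05 there were 3 of 10, all lower, where 8.62% of all probe sets were called in either direction, 4.4% lower and 4.22% higher. The groups did not overlap, on the lower side, in 2 of 10, against 2.42% of all probe sets (5.64% in either direction). The median difference of the 10 genes was -0.12, beside 0.00 over all probe sets, and 8 of 10 had a lower mean in GRBATKO mice, beside 50.6% of all probe sets.

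Trib3 (probe set 228775_at) read 5.06, 5.28, 5.84 and 5.32 in control mice 1 to 4 and 4.83, 4.95, 4.78 and 4.83 in GRBATKO mice 1 to 4 (log2 intensity). Every knockout lay below every control. The controls were spread over a wider range than the knockouts, with control 3 highest. Controls averaged 5.37 ± 0.33 (SD, n = 4) and knockouts 4.85 ± 0.07 (SD, n = 4), a difference of -0.53 (SE 0.15), or 0.694 of the control level. On the linear scale the intensities ran from 33.3 to 57.2 in control and from 27.5 to 30.9 in GRBATKO mice. Counted from the most negative difference of all probe sets, Trib3 stood at rank 125 and Mthfd2 at rank 105.

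Control 3, the mouse highest in Trib3, was also highest in skeletal muscle markers, of which 11 of 12 had a lower mean in GRBATKO mice. The marker mean ran from 3.30 to 7.14 in control and from 3.22 to 5.61 in GRBATKO mice. GRBATKO 4, second in muscle markers, had Trib3 at 4.83, within the other knockouts. Without control 3 the Trib3 difference was -0.37 (SE 0.09), without control 3 and GRBATKO 4 it was -0.36 (SE 0.11), and after adjusting for the muscle mean it was -0.44 (SE 0.12). In deviations from the group means over 8 mice, Trib3 and the muscle mean had Pearson r = 0.74 (two-sided exact permutation p = 0.123, adjusted p = 0.362 over 3 genes tested). The Spearman rho was 0.67 (exact permutation p = 0.123, adjusted p = 0.370). Chac1 and Mthfd2 were tested beside it. For Chac1 the Pearson r was 0.56 (exact permutation p = 0.241, adjusted p = 0.362) and rho 0.38. For Mthfd2 the Pearson r was -0.02 (exact permutation p = 0.957, adjusted p = 0.957) and rho -0.07. Without control 3 and GRBATKO 4 the Pearson r of Trib3 was 0.49. Its deviations were still taken from the group means over all 8 mice, so the removed mice still weigh on this value.

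**Figure D1:**
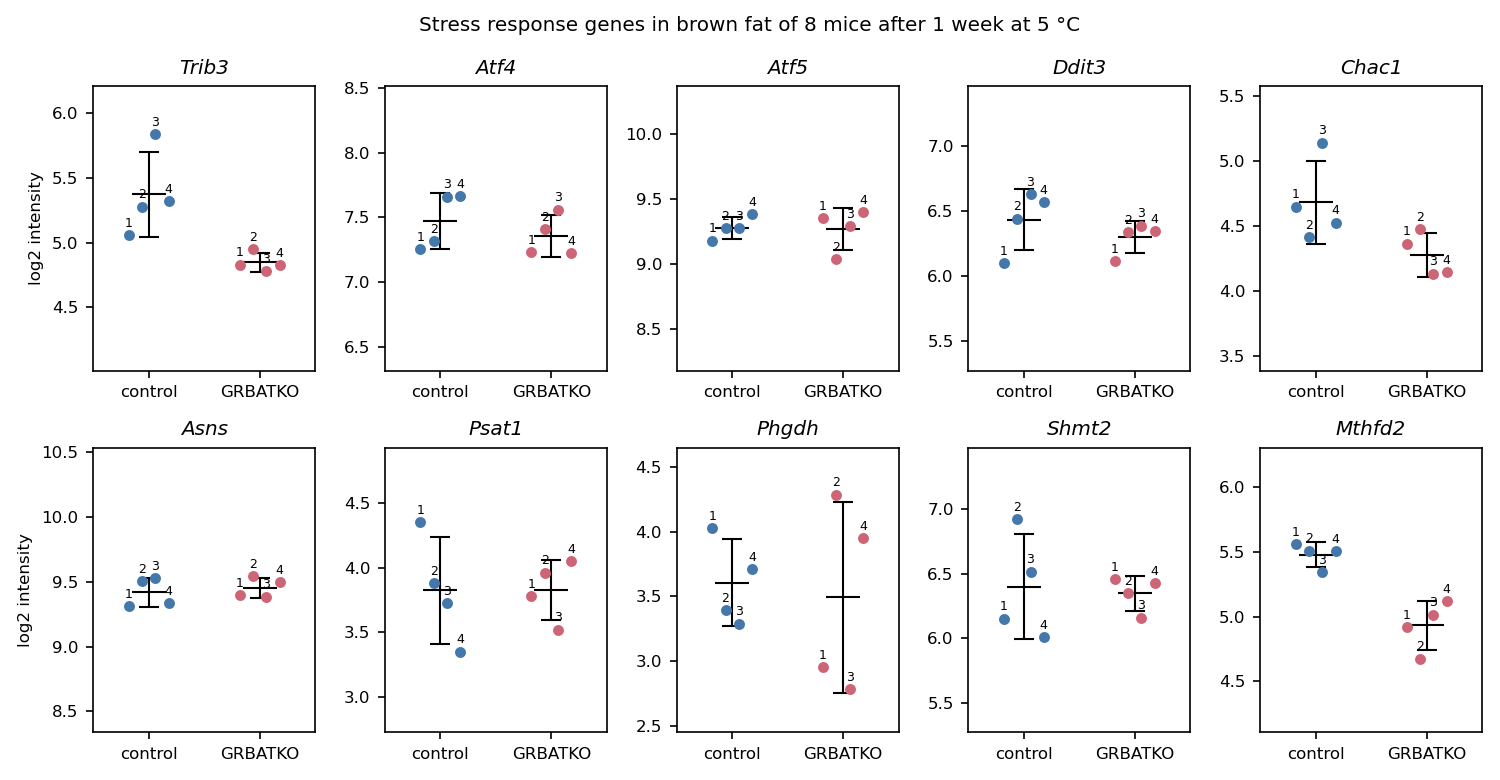
Log2 intensity (vertical axis, each panel spanning the same number of log2 units around its own centre) of the 10 genes in 4 control (blue) and 4 GRBATKO mice (red). Points are single mice with their replicate number, and bars are the mean ± SD; in Trib3 and Mthfd2 all red points lie below all blue points.

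**Figure D2:**
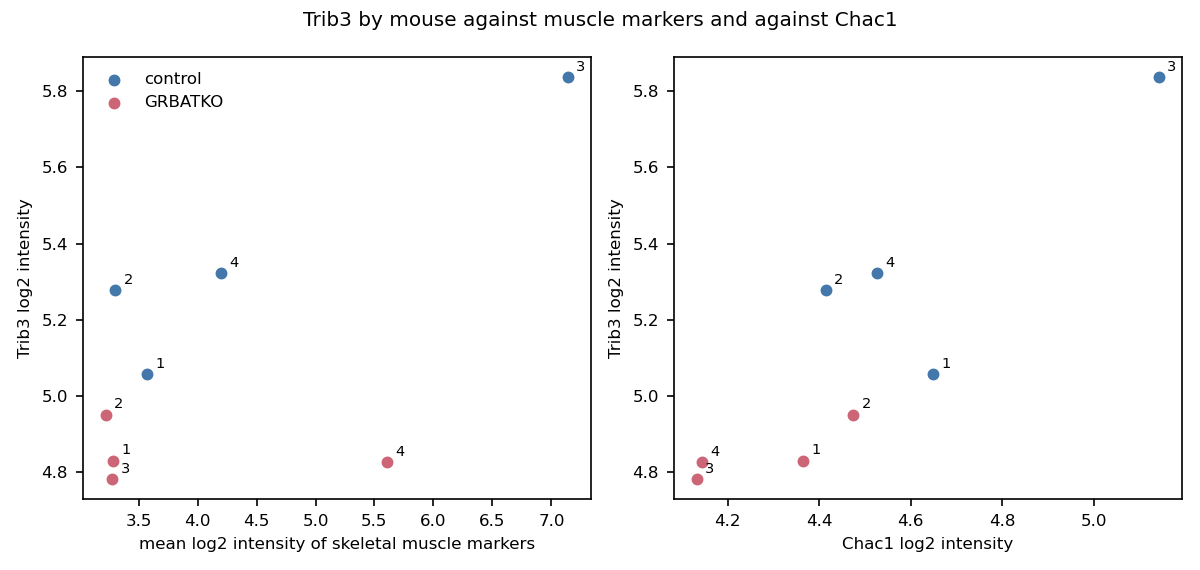
Trib3 log2 intensity (vertical axes) against the mean log2 intensity of 12 skeletal muscle markers (left) and against Chac1 log2 intensity (right), 1 point per mouse with its replicate number. Control 3 is the highest mouse on both horizontal axes and in Trib3, and GRBATKO 4 is second in muscle markers with Trib3 at 4.83.

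Atf4 mRNA itself, the transcription factor at the head of the response, overlapped between the groups. It read 7.25, 7.32, 7.66 and 7.66 in controls and 7.23, 7.41, 7.56 and 7.22 in GRBATKO mice. Both groups held mice near 7.2 and mice near or above 7.5. The difference was -0.12 (SE 0.12). Ddit3, which codes for CHOP, a factor induced by ATF4 that promotes cell death under lasting stress, read 6.10, 6.44, 6.63 and 6.57 in controls and 6.12, 6.34, 6.39 and 6.35 in knockouts. In both groups mouse 1 was the lowest, and the difference was -0.14 (SE 0.12). Leaving out single mice moved the Ddit3 difference between -0.25 (SE 0.09), without control 1, and -0.07 (SE 0.13), without control 3, and that of Atf4 between -0.19 and -0.05. Atf5, a relative of Atf4 that is translated by the same mechanism and acts in the mitochondrial stress response, had nearly equal means, 9.28 ± 0.08 (SD, n = 4) for controls and 9.27 ± 0.16 (SD, n = 4) for knockouts. The Atf5 difference was -0.01 (SE 0.09).

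Chac1 codes for an enzyme that breaks down glutathione and is a target of ATF4. It read 4.65, 4.41, 5.14 and 4.53 in controls and 4.36, 4.47, 4.13 and 4.14 in GRBATKO mice. The groups overlapped, because control 2 lay below GRBATKO 2, and control 3 was again the highest mouse. The difference was -0.40 (SE 0.16), or 0.755 of the control level. It was -0.25 (SE 0.11) without control 3 and -0.21 (SE 0.12) without control 3 and GRBATKO 4.

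Mthfd2, the mitochondrial enzyme that oxidises methylene-tetrahydrofolate in one-carbon metabolism, read 5.56, 5.51, 5.34 and 5.50 in controls. It read 4.92, 4.67, 5.02 and 5.12 in GRBATKO mice. All knockouts lay below all controls, and control 3 was the lowest control, unlike in Trib3 and Chac1. The mean went from 5.48 ± 0.09 (SD, n = 4) to 4.93 ± 0.19 (SD, n = 4), a difference of -0.55 (SE 0.10), or 0.685 of the control level. Over 15 other settings it lay between -0.65 and -0.46, and it was -0.59 (SE 0.11) without control 3. The lowest knockout, GRBATKO 2, was the mouse high in lymphocyte markers, and without it the difference was -0.46 (SE 0.09).

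The 4 enzymes of serine, glycine and asparagine synthesis among the 10 genes overlapped between the groups. Asns, asparagine synthetase, read 9.31, 9.51, 9.53 and 9.33 in controls and 9.40, 9.54, 9.39 and 9.50 in knockouts, a difference of 0.04 (SE 0.08). Shmt2, the mitochondrial enzyme that turns serine into glycine and a one-carbon unit just upstream of Mthfd2, ran from 6.01 to 6.92 in controls and from 6.16 to 6.46 in knockouts. Its difference was -0.05 (SE 0.18), -0.37 without control 1 and control 4, the arrays with the narrower spread of intensities, and 0.12 without control 2. Phgdh, which commits glycolytic carbon to serine, ran from 3.29 to 4.03 in controls and from 2.78 to 4.29 in knockouts, so the knockouts spanned the controls on both sides (difference -0.11, SE 0.33). The highest of them was GRBATKO 2, the mouse high in lymphocyte markers. The Phgdh difference ran from -0.38 without GRBATKO 2 to 0.12 without GRBATKO 3, so single mice turned its sign. Psat1, the next enzyme of that route, ran from 3.35 to 4.35 and from 3.52 to 4.05 (difference 0.00, SE 0.20, and from -0.16 to 0.18 without single mice). No detection call was used, so the distance of such low values from background is unknown. Phgdh is the 1 gene of the 10 that a filter on dim probe sets, at the 40th percentile of mean intensity, would leave out.

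**Figure D3:**
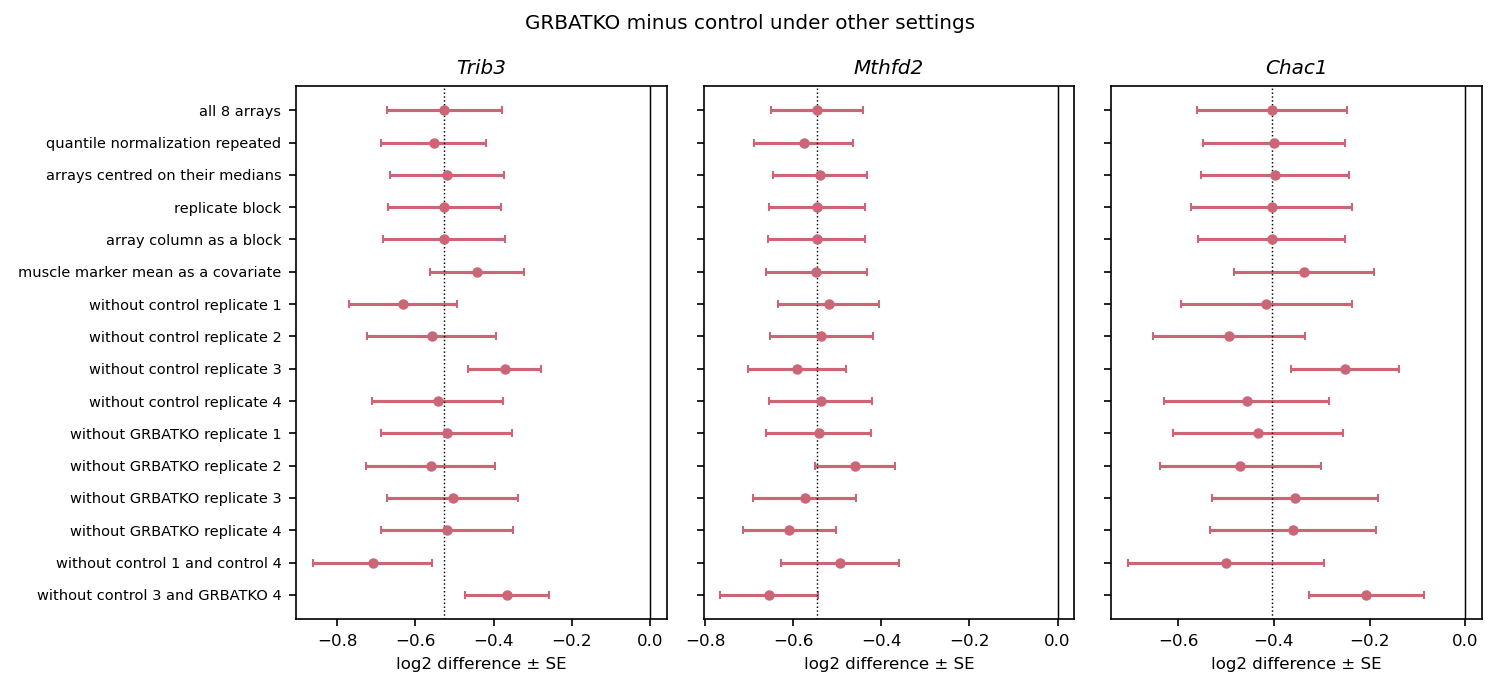
GRBATKO minus control differences in log2 intensity (horizontal axes, point ± SE) of Trib3, Mthfd2 and Chac1 with all 8 arrays and under 15 other settings (rows). The dotted line marks the value with all arrays and the solid line 0. All points lie below 0, with Trib3 between -0.71 and -0.36 and Chac1 between -0.50 and -0.21. In Trib3 and Mthfd2 the groups did not overlap, so leaving out mice could not turn the sign.

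Whether the genes varied together from mouse to mouse was asked after removing the group means, which leaves out the contrast that chose them. Over 8 mice 9 pairs with Trib3 were tested, by a two-sided exact permutation test within groups, for which the smallest possible p is 0.00174. None of the 9 passed after adjustment over the pairs. The closest was Mthfd2, which ran opposite to Trib3 within the groups (Pearson r = -0.60, exact permutation p = 0.00868, adjusted p = 0.0781; Spearman rho = -0.67, exact permutation p = 0.0243, adjusted p = 0.219). It stayed at r = -0.76 without control 1 and control 3, the 2 mice whose Trib3 deviations lay farthest from their median. In each r given without these 2 mice, deviations were still taken from the group means over all 8 mice. The removed mice therefore still weigh on these values. When single mice were left out, the group means were taken again. With the group means kept in, r was 0.55, since both genes were lower in the knockouts.

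Chac1 ran with Trib3 (Pearson r = 0.79, exact permutation p = 0.106, adjusted p = 0.318; Spearman rho = 0.74, exact permutation p = 0.0660, adjusted p = 0.297). The value was r = 0.91 without control 1 and control 3, with the group means of all 8 mice kept. It was r = 0.06 without control 3 alone, with the means taken again, so these values are not directly comparable. For Ddit3, Asns and Atf4 the Pearson r was 0.70, 0.67 and 0.58, with exact permutation p-values of 0.233, 0.0590 and 0.231 (adjusted p = 0.419, 0.266 and 0.419) and Spearman rho of 0.48, 0.60 and 0.40 (adjusted p = 0.734, 0.729 and 0.734). Without control 1 and control 3, with the group means of all 8 mice kept, the Pearson r was -0.10 for Ddit3 and 0.06 for Atf4. For Asns it was 0.34 without both, and 0.52 to 0.85 without single mice. The other 4 genes lay between -0.34 and 0.25, with adjusted p from 0.783 to 0.944 by exact permutation and Spearman rho from -0.21 to 0.33. Without the same 2 mice they lay between -0.70 in Atf5 and 0.70 in Phgdh.

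The genes most like Trib3 across all 8 arrays, among 11719 named probe sets that were not dim, were Snhg16, a host gene of small nucleolar RNAs (Pearson r = 0.95), Lpcat4, a lysophospholipid acyltransferase (0.94), Sgk2, a serine/threonine kinase (0.93), Rit1, a small GTPase (0.93), and Xrcc5, the Ku80 subunit of DNA end joining (0.93). These r values are a description over arrays that share the genotype difference. In deviations from the group means they were 0.83 to 0.91, and all 5 genes were highest in control 3. Their differences ran from -0.66 in Sgk2 (SE 0.21) to -0.11 in Rit1 (SE 0.07).

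The rest of the pathway was read through 10 further lists, which were not chosen by how their genes moved but were written with earlier results of these data known. Of their 123 genes 119 were matched to a named probe set and are called measured here, and the other 4 were not used. None had an adjusted p under 0.05 by limma, against 0.0237% of all probe sets, and none with an intensity trend in limma's prior, against 0.142%. At an unadjusted p under 0.05 there were 4 lower and 2 higher among the 119, where 8.62% of all probe sets were called in either direction. The groups did not overlap in 4 genes on the lower side and 4 on the higher, against 2.42% and 3.22% of all probe sets. Slc3a2, Aars, Clpx and Dnaja3 were those lower and Psph, Lars, Farsb and Calr those higher, while Cbs, Slc3a2, Aars and Got1 were the 4 lower at the unadjusted threshold and Psph and Lars the 2 higher (Dnaja3, Farsb and Got1 are named after their values were seen). Over the 119 genes the median difference was 0.00, with 60 lower and 59 higher means.

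The mRNAs that start and stop the response did not pass. This list held eIF2 kinases, phosphatase subunits and eIF2B subunits, and also Gcn1, Impact, Oma1 and Dele1. Of its 15 measured genes 10 had a higher mean in GRBATKO mice, where 50.6% of all probe sets had a lower one. The median difference was 0.05. The kinase Eif2ak3 (PERK), which answers misfolded protein in the endoplasmic reticulum, differed by 0.17 (SE 0.12) and Eif2ak4 (GCN2), which senses uncharged tRNA, by 0.14 (SE 0.11). The double-stranded RNA sensor Eif2ak2 (PKR) differed by 0.10 (SE 0.08) and the heme-regulated Eif2ak1 (HRI) by -0.04 (SE 0.06). Ppp1r15a (GADD34), the inducible subunit that brings a phosphatase to eIF2 and ends the response, differed by -0.24 (SE 0.15), with GRBATKO 4 at 4.07 against 4.66 to 4.97 in the other 7 mice. Without GRBATKO 4 the Ppp1r15a difference was -0.08 (SE 0.09). Its constitutive relative Ppp1r15b differed by 0.09 (SE 0.10). Control 1 was the lowest mouse in Eif2ak3, Eif2ak4 and Ppp1r15b, and without it these differences were 0.05 (SE 0.09), 0.05 (SE 0.09) and 0.00 (SE 0.07). Adjusted p from limma was 0.697 to 0.897 for these 6 genes.

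Other transcription factors that pair with ATF4 or act beside it lay close to 0 (5 measured, median difference 0.01). Cebpg, a dimer partner of ATF4, differed by 0.04 (SE 0.07) and the stress-induced cofactor Nupr1 by 0.01 (SE 0.08). Atf3, an early target, differed by -0.10 (SE 0.18), with controls spread from 4.72 to 5.70 and knockouts between 5.10 and 5.13, and by 0.06 (SE 0.14) without control 3. Of the tribbles family, Trib1 differed by 0.08 (SE 0.20, and from -0.05 to 0.26 without single mice) and Trib2 by -0.02 (SE 0.08), and in both the groups overlapped. Among proteins that TRIB3 binds, Akt1, a kinase of insulin signalling, differed by -0.07 (SE 0.07) and Acaca, acetyl-CoA carboxylase, by 0.07 (SE 0.07). Adjusted p from limma was 0.793 to 0.979 for these 7 genes.

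Amino acid transporters had the most negative median of the 10 lists, -0.17, with 9 of 11 lower means, beside 50.6% of all probe sets. That median is the value of Slc7a11, which read 2.08 to 2.545, under the cut for dim probe sets (3.62). Slc1a4, lower in mean, and Slc7a3 and Slc38a1, higher in mean, also lay under it. Slc7a11 and Slc7a5 were highest in control 1 and control 4, the arrays with the narrower spread of intensities. Slc7a5 read 4.18 and 4.27 there, against 3.32 to 3.68 in the other mice. Slc3a2, the heavy chain that carries several amino acid exchangers to the cell surface and a target of ATF4, read 10.14, 10.22, 10.48 and 10.39 in controls and 9.71, 9.80, 10.03 and 9.97 in GRBATKO mice. The groups did not overlap. The difference was -0.43 (SE 0.10, limma adjusted p = 0.316), and it did not pass in any of 18 other settings, where it lay between -0.49 and -0.37 (limma adjusted p from 0.124 to 0.569). Slc38a2, a sodium-coupled neutral amino acid transporter, differed by -0.18 (SE 0.10, limma adjusted p = 0.665).

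Enzymes of serine, one-carbon and amino acid metabolism beyond the 10 genes went both ways (13 measured, median -0.07, 9 lower and 4 higher means). Psph, the last enzyme of serine synthesis, lay higher in every knockout, from 7.11 to 7.26, than in any control, from 6.93 to 7.06. Its difference was 0.17 (SE 0.07, limma adjusted p = 0.563), of opposite sign to that of Mthfd2. Cbs, which starts the conversion of homocysteine to cysteine, differed by -0.54 (SE 0.17, limma adjusted p = 0.443), with intensities of 3.51 to 4.13 in controls and 2.90 to 3.53 in knockouts. Its mean over all mice lay under the cut for dim probe sets (3.62). Control 3 was its highest mouse, and without it the Cbs difference was -0.43 (SE 0.16).

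Aminoacyl-tRNA synthetases, a large class of ATF4 targets that charge tRNAs with amino acids, were centred on 0 (19 measured, median 0.00, 10 lower and 9 higher means). Aars, for alanine, differed by -0.20 (SE 0.08, limma adjusted p = 0.563) and Lars, for leucine, by 0.20 (SE 0.07, limma adjusted p = 0.515), each with no overlap between the groups. Further targets of ATF4 and CHOP had a median of -0.05 (12 measured, 7 lower). Sesn2, a leucine sensor that restrains mTORC1, differed by -0.16 (SE 0.14, and by -0.07 without control 3), the pro-apoptotic Bbc3 by -0.20 (SE 0.10), the lipoprotein receptor Vldlr by -0.09 (SE 0.08) and the translation repressor Eif4ebp1 by 0.10 (SE 0.07). Adjusted p from limma was 0.638 to 0.792 for these 4. Fgf21, a hormone that stressed muscle and brown fat secrete, read 4.78 in control 3 against 3.41 to 3.94 in the other 7 mice. It differed by -0.23 (SE 0.28, limma adjusted p = 0.834) with all mice and by 0.08 (SE 0.13) without control 3, the mouse highest in muscle markers.

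Of 20 genes of the endoplasmic reticulum unfolded protein response 16 had a higher and 4 a lower mean in GRBATKO mice, where 50.6% of all probe sets had a lower one, and the median was 0.09. By limma 0 of the 20 passed, also at an unadjusted p under 0.05, and the groups did not overlap in 1, Calr. The chaperones Hsp90b1 and Calr differed by 0.16 (SE 0.08) and 0.15 (SE 0.07), with limma adjusted p = 0.617 and 0.604. Mitochondrial chaperones and proteases had a median of -0.03 (12 measured, 7 lower). Of these, Spg7, a protease subunit of the inner membrane, differed by 0.18 (SE 0.10) and Clpx, the unfoldase of the matrix protease, by -0.18 (SE 0.10, and by -0.08 without control 2), with limma adjusted p = 0.657 and 0.665. Glutathione genes had a median of -0.05 (6 measured, 4 lower). Gss, glutathione synthetase, differed by -0.27 (SE 0.19), by -0.09 (SE 0.14) without control 2, its highest mouse, and by -0.57 (SE 0.19) without control 1 and control 4. Chac2, a relative of Chac1, differed by 0.08 (SE 0.10), and by -0.02 (SE 0.07) without GRBATKO 3. The limma adjusted p of Gss and Chac2 was 0.725 and 0.842 with all mice.

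**Figure D4:**
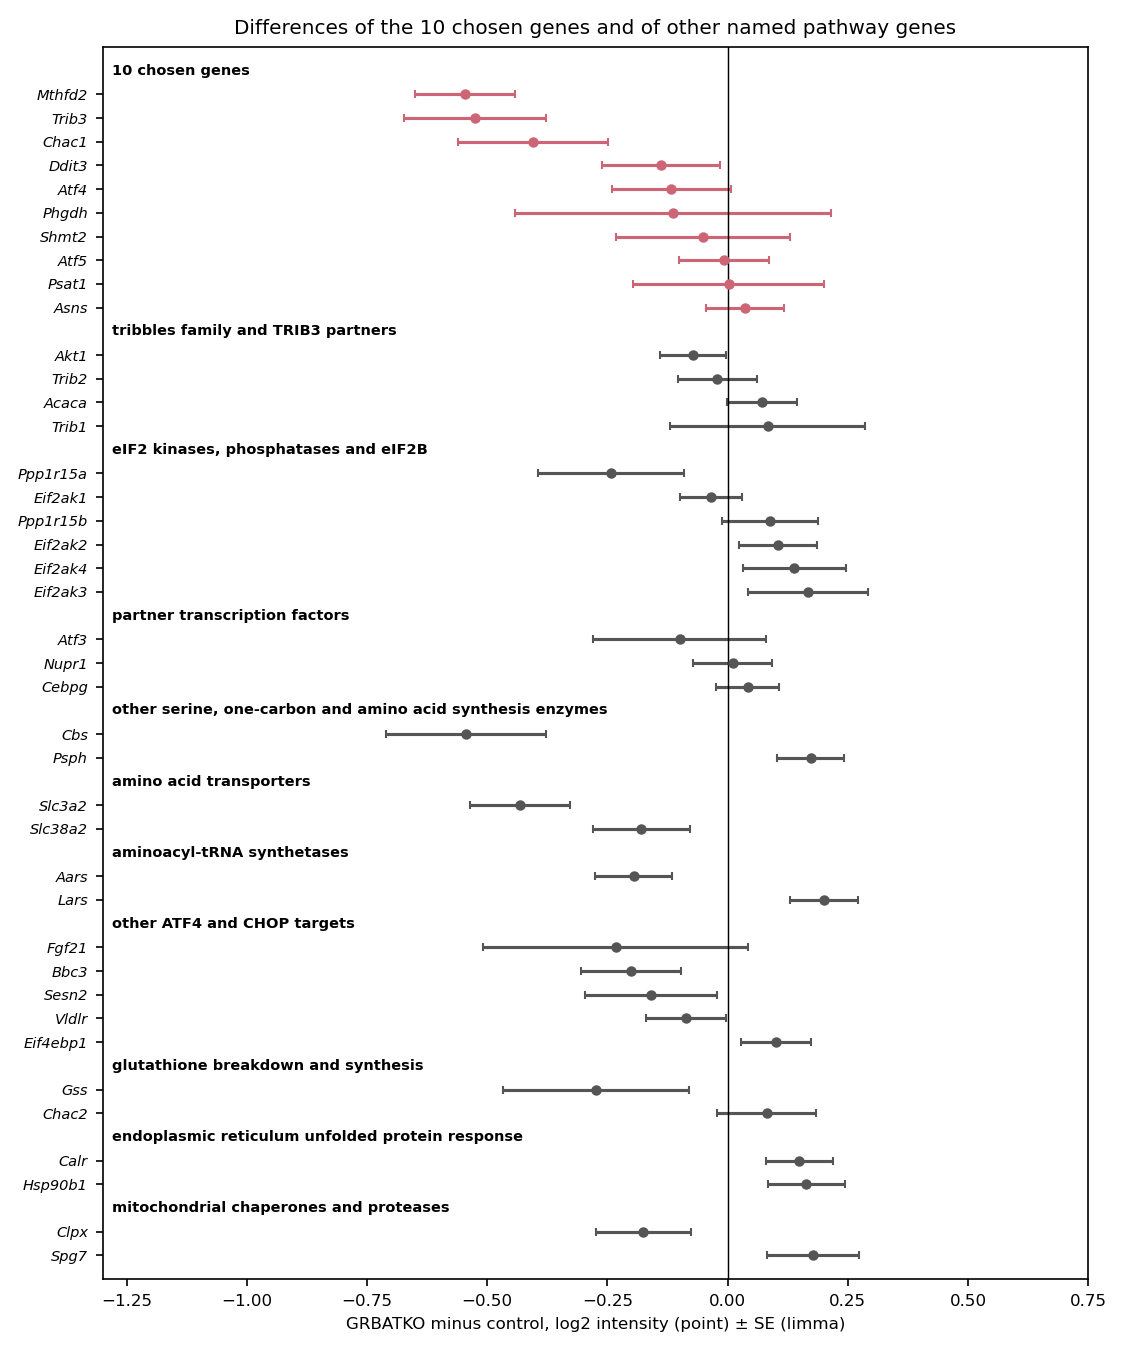
GRBATKO minus control differences in log2 intensity (horizontal axis, point ± limma SE) of the 10 chosen genes (red) and of 30 other named pathway genes (grey), grouped by list. Mthfd2, Trib3 and Chac1 lie at -0.55, -0.53 and -0.40, and Slc3a2 and Cbs at -0.43 and -0.54, while the eIF2 kinases lie between -0.04 and 0.17. Cbs is a dim probe set.

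**Figure D5:**
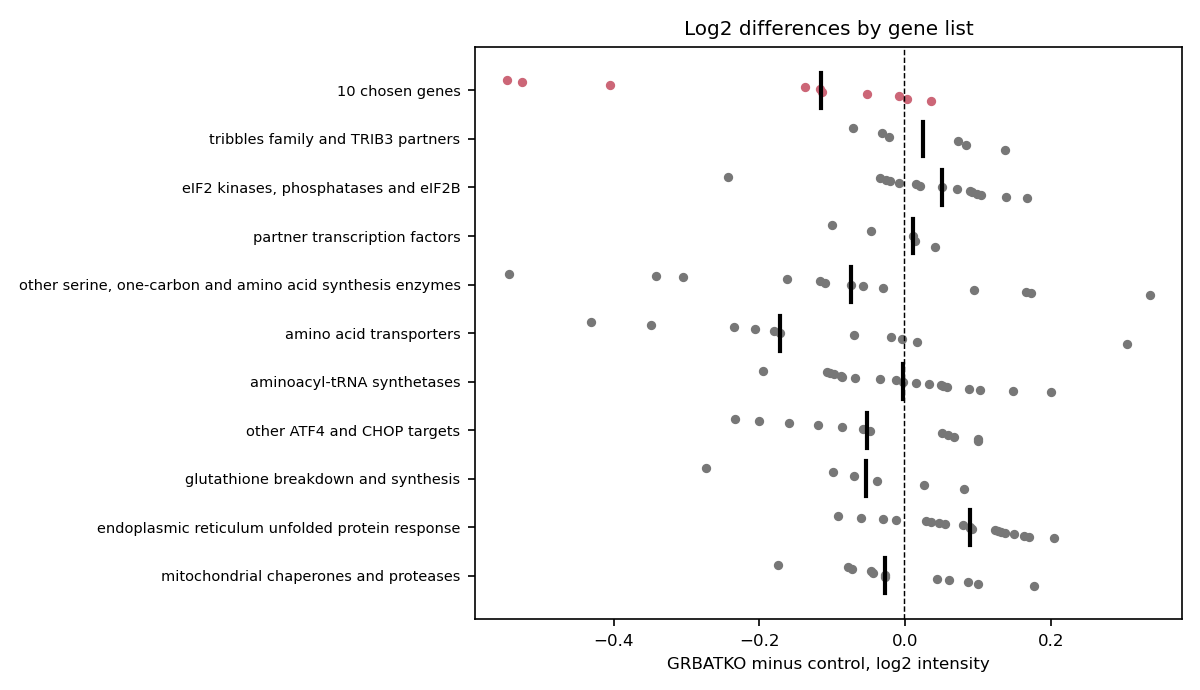
Differences in log2 intensity, GRBATKO minus control (horizontal axis), of every measured gene in the 10 chosen genes (red) and in 10 further lists (grey), 1 point per gene. Thick bars are list medians, from -0.17 in amino acid transporters to 0.09 in the unfolded protein response, and the dashed line is the median of all probe sets at 0.00. The -0.17 is the value of Slc7a11, a dim probe set.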

How the data were processed

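The authors deposited linear intensity values, 1 for each probe set of an array, made with RMA per the submitters' processing notes. The RMA version, genome build and batch handling were not given in the sources used here. Values ran from 2.07 to 9168, and log2 was taken. Probe sets were named from the platform annotation (1 symbol for 20405 of 21115, none for 710), with current symbols from RefSeq. Of 186 list entries 180 were matched to a named probe set, 1 through an older symbol; the other 6 have no probe set named in that annotation and were not used, so counts of measured genes leave them out. The genotypes were compared using limma 3.58.1 under R 4.3.3 (lmFit, eBayes, genotype as the only term, 6 residual degrees of freedom), with Benjamini-Hochberg adjustment over all 21115 probe sets and a threshold of 0.05. No filter on low values was used. Precision is limited by the 8 arrays.

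The 10 genes, the lists and the tests were chosen with earlier results of these data known. Named were the 10 genes, Nr3c1, Ucp1, 15 measured pathway genes always, and of each list the genes past the threshold or otherwise the 2 of smallest p. The 5 genes with the highest Pearson r with Trib3 were also named, among probe sets at or above the 40th percentile that are no predicted genes. Promoter sequences are those of RefSeq (GRCm38.p6). Alternatives were other variance priors, scalings, a filter on dim probe sets, blocks, a muscle covariate and leaving out arrays. The fit was tested on 5 simulated data sets with 200 changed probe sets each. At the same threshold it recovered 56% of 1.5-fold and 88.8% of 2-fold changes. Recovery after adjustment depends on how many probe sets change, and only 5 passed in the data. These shares may therefore be too high for the data. Changes smaller than 1.5-fold, such as those of Trib3 and Slc3a2, were not simulated, so a gene that did not pass may still differ. Figures were drawn with matplotlib 3.10.9.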

Additional observations from a re-analysis of the deposited data

Results flagged for a closer look

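Among 47 named genes, each in 2 groups of 4 mice, 8 groups held 1 mouse far from the others by Dixon's test, where chance alone flags about 1 in 20 groups. The groups are not independent, since the genes share mice. Control 3 was high in Fgf21 (4.78, against 3.41 to 3.63 in the other controls), Rit1 (6.28, against 6.13 to 6.14) and Xrcc5 (5.29, against 5.03 to 5.06); Rit1 and Xrcc5 were named for their likeness to Trib3, which was itself highest in that mouse. Control 1 was low in Eif2ak3 (6.28, against 6.71 to 6.79) and in Ppp1r15b (7.28, against 7.63 to 7.68). GRBATKO 4 was low in Ppp1r15a (4.07, against 4.66 to 4.79 in the other knockouts), GRBATKO 1 was low in Sesn2 (5.96, against 6.25 to 6.31) and GRBATKO 3 was high in Chac2 (6.20, against 5.74 to 5.81). None of the 10 chosen genes was among them.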

How the results depend on the processing

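The Trib3 difference lay between -0.71, without control 1 and control 4, and -0.36, without control 3 and GRBATKO 4, over the 15 settings tried. When single mice were left out it lay between -0.63 and -0.37. Every knockout lay below every control, so leaving out mice could not turn its sign. The blocks cannot move this difference either, because the design is balanced. The median of the 10 genes lay between -0.19 and -0.06, the latter without control 3. None of the 30 named pathway genes passed in any of 539 refitted values, and the sign changed in 19 of them, spread over 7 genes. The count of pathway genes past the threshold was 0 in all 18 settings, and none of the 9 correlations with Trib3 passed in any of the 12 tried. The count over all probe sets, 5, was 30 under limma's intensity trend, 14 with dim probe sets left out (fewer were tested), 8 after repeated quantile normalization, 3 without control 1 and control 4, 2 without control 3 and GRBATKO 4, and 3 to 5 without single mice, with 3 without GRBATKO 2. With the replicate number as a block it was 1, and the Trib3 difference was -0.53. Mice with the same number did not deviate together (correlations of -0.06 to 0.09 over all probe sets), so the numbers were not taken as pairs. The cause of these changes in the count over all probe sets was not tested.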
